A study of Mus musculus with 401 samples.

Results

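The response of the oocyte to calorie restriction was compared with the response of the cumulus cells around it, gene by gene, in 81 of the 401 libraries of the series. The quantity described is an interaction: the log2 change from ad libitum feeding to calorie restriction in oocytes minus the same change in cumulus cells, so that a positive value means a change more upward in oocytes. Libraries were those of 9-month-old B6D2F1 (C57BL/6 x DBA/2) females, labelled Middle where the mice fed ad libitum (AL) and CR where an adult-onset restriction of calories had been kept up to the same age. Per the study's methods, the CR regimen also brought single housing and 1 daily meal. Follicle growth had been stimulated by hormone treatment, either eCG or HyperOva, and the labels do not say which mouse received which. Each library held the RNA of 1 oocyte at the germinal vesicle stage, or of the pool of cumulus cells from the same fully grown follicle, read by RamDA-seq, a full-length total RNA method. From 4 Middle mice came 14 oocyte and 15 cumulus libraries, and from 3 CR mice 27 and 25. Counts were summed per mouse and cell type, and the mouse was the replicate.

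An oocyte and its cumulus cells grow as a unit coupled by gap junctions, through which the cumulus cells pass metabolites, amino acids and cyclic nucleotides, while the oocyte secretes growth factors that steer cumulus metabolism and division. The oocyte at this stage is close to transcriptional silence and holds a store of maternal mRNA, whereas cumulus cells divide and transcribe actively, so a change in RNA level may come about differently in each. Calorie restriction lowers insulin and growth factor signalling in many tissues and has long been studied for its effects on ageing and on female fertility.

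Libraries matched their labelled cell type by their markers, with 1 exception. The 16 oocyte markers summed to between 18496 and 24554 CPM (counts scaled to a common total) per mouse in oocytes, led by the growth factor Gdf9 at 4235 CPM, and to between 9.30 and 54.2 CPM in cumulus cells, where Kit led and Figla was at 0 in every library. The higher limit came from a cumulus library of CR mouse 3 at 453 CPM, without which that mouse stood at 20.95 CPM. The 16 cumulus and granulosa markers, led in both cell types by the gap junction protein Gja1, summed to between 18849 and 21479 CPM in cumulus cells and to between 330.5 and 1452 CPM in oocytes. In oocytes these markers stood at 1452, 696, 330.5 and 1229 CPM in Middle mice 1 to 4 and at 1020.2, 899 and 537 CPM in CR mice 1 to 3, so the diets overlapped. Single libraries carried much of this: without its highest library Middle mouse 2 stood at 435 CPM, Middle mouse 4 at 462 CPM and CR mouse 1 at 411 CPM. The exception was an oocyte library of Middle mouse 3 with 16.3 CPM of Zp3, 0.856% of the oocyte median, and its complex was left out. The lowest library kept, from CR mouse 1, had 834 CPM of Zp3, 43.7% of the median. Middle mouse 3 was then left with 1 oocyte library and 1 cumulus library, against 3 to 13 of each for the other mice.

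Middle mouse 4 stood apart by markers of other ovarian cells. Its 8 luteal markers summed to 1342 CPM in cumulus cells and 723 CPM in oocytes, against 155 to 458 and 101 to 141 CPM in the other 6 mice. In oocytes this came from 2 of its 4 libraries, at 983 and 1665 CPM against 112 and 133 in the others, and the mean without the highest was 409 CPM. Its 12 theca and stroma markers, led by Aldh1a1, summed to 281 and 104 CPM, against 35.2 to 73.04 and 2.89 to 11.3 CPM. Without its highest library the oocyte value was 48.4 CPM. Insl3 was at 0 in every oocyte library. The 11 immune markers summed per mouse to at most 25.5 CPM in cumulus cells and 21.2 CPM in oocytes. A single cumulus library of CR mouse 2 reached 124 CPM. In oocytes the 3 CR mice (14.8 to 15.5 CPM) lay below the 4 Middle mice (from 16.03 CPM). The exact permutation p was 0.0571, and 0.212 after Benjamini-Hochberg adjustment. The 8 endothelial markers summed to between 90.3 and 124 CPM in oocytes, mostly Pecam1 at 77.3 CPM, with the 3 CR mice above the 4 Middle mice. In cumulus cells the endothelial markers stood at 25.2 CPM in Middle mouse 3 and 19.4 CPM in Middle mouse 4. The other mice had 4.07 to 6.54 CPM. Red blood cell markers summed per mouse to at most 89.5 CPM, most of it Alas2, and a single cumulus library of Middle mouse 2 reached 115 CPM. The part of these markers in the gene results was not tested, and list medians without Middle mouse 4 are given below.

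Depth moved with the diet in both cell types. Totals ran from 1903860 to 2624880 counts in Middle oocytes and from 2752040 to 4536690 in CR oocytes, and from 848243 to 1269680 and from 1568220 to 2501010 in cumulus cells. The mean total per mouse did not overlap between diets in either cell type (2-sided exact permutation test, p = 0.0286, the smallest 35 arrangements allow, and 0.124 after Benjamini-Hochberg adjustment over 26 such tests). The same p was reached by the genes detected per cumulus library (18187 ± 256 in Middle, 19283 ± 354 in CR), by the share of their nonzero counts that were not whole (35.5% ± 0.702 and 37.9% ± 0.315, SD, n = 4 and 3), and in oocytes by the mitochondrial share and the endothelial markers. Mean genes detected per oocyte library, by mouse, did not overlap between diets either (18946 ± 643 and 19923 ± 361, p = 0.0857), though single libraries did. The part of the not-whole share in genes whose counts were often not whole was not tested. No label gives a preparation or sequencing batch for these mice, so diet and any such batch cannot be told apart.

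Of 12657 genes with a mean of at least 1 CPM in both cell types, 58 were called for a response that differed between oocytes and cumulus cells (edgeR quasi-likelihood F test with the mouse as a block, Benjamini-Hochberg adjusted p under 0.05), 0.458% of those tested. Of these, 43 were positive (0.34%) and 15 negative (0.119%). The split depended on the method. DESeq2, with size factors over all 14 sums, called 435 positive and 494 negative. The fit without the mouse as a block called 299 and 277, libraries as units 1858 and 1994, and TMM over all 14 sums 39 and 0. TMM over all sums also shifted the median of all genes from -0.01 to 0.24. At an unadjusted p under 0.05 stood 2694 genes, 21.3%. Of the 58 called, 54 were protein coding, and 14 had over 50% of their nonzero counts not whole. By sign, the changes in oocytes and cumulus cells were opposite in 50 of 58 called genes, which were selected for a large difference, and in 50.6% of all genes tested. In 17 of the 58 the cumulus change lay within its SE of 0, so its sign is uncertain. By direction, 35 of the 43 positive genes had a change above 0 in oocytes and below 0 in cumulus cells, the other 8 were above 0 in both, and all 15 negative genes were below 0 in oocytes and above 0 in cumulus cells. In 49 of 58 the oocyte change was the larger in size, against 63% of all genes tested. In all 58 called genes the 4 Middle and the 3 CR mice did not overlap in the log2 ratio of oocyte to cumulus level, as was so for 20.9% of all genes tested. The calls were made on this same difference, so this describes them and adds no support. Across all genes the changes in the 2 cell types had a Pearson r of 0.05, a description over genes that share the same 14 sums.

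The number called depended strongly on the choice of mice and model. Without Middle mouse 3, which had 1 complex, edgeR called 567 genes, all 58 among them. With another mouse left out, edgeR called 3 genes without Middle mouse 1, 7 without CR mouse 3 (6 of them among the 58), and 1 without Middle mouse 2, Middle mouse 4, CR mouse 1 or CR mouse 2, where that gene was Trim6. Without the mouse as a block 576 genes were called, 57 of the 58 among them, and with the complex of Middle mouse 3 put back the edgeR test called 0, with 2283 at an unadjusted p under 0.05. In each of these fits all 58 genes had the sign given here, which genes selected for a small p would mostly keep.

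**Figure D1:**
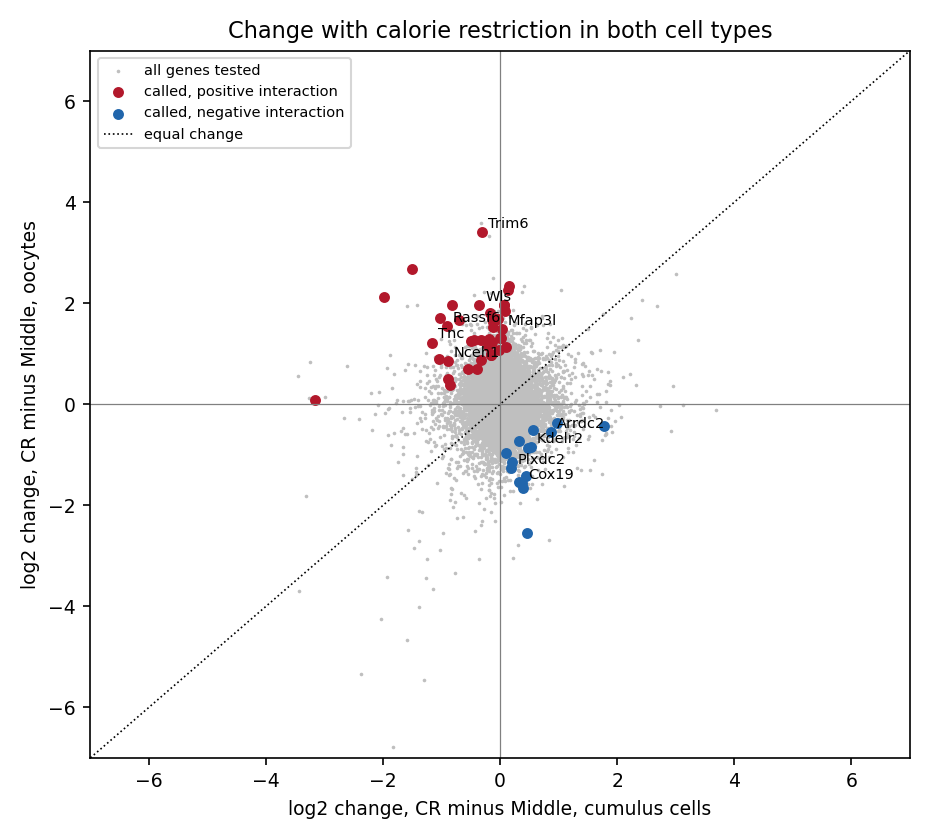
Log2 change from Middle to CR in cumulus cells (horizontal axis) and in oocytes (vertical axis) for the 12657 genes tested, from 4 Middle and 3 CR mice. The 43 genes called with a positive interaction (red) lie above the dotted line of equal change and the 15 with a negative one (blue) below it, with some of the named genes labelled.

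Trim6, a ubiquitin ligase of the tripartite motif family (chromosome 7, 104218793 to 104235152, GRCm38), had the largest positive interaction of the genes named. In oocytes it stood at 2.98, 2.98, 1.34 and 4.32 CPM in Middle mice 1 to 4 and at 38.6, 30.0 and 32.8 CPM in CR mice 1 to 3. In cumulus cells it stood at 8.70, 11.01, 7.84 and 12.4 and at 10.3, 7.76 and 7.23 CPM. The oocyte levels of the diets were far apart and the cumulus levels overlapped. The change was 3.40 on the log2 scale in oocytes and -0.31 in cumulus cells, an interaction of 3.75 (SE 0.28) with an adjusted p of 0.00253. Among single oocytes the median was 2.30 CPM in Middle (lowest 0, highest 15.1, with 3 of 14 at 0) and 32.03 CPM in CR (lowest 8.37, highest 76.3). Trim6 was called in 23 of 24 other settings, and 40.5% of its nonzero counts were not whole, so part of its reads is shared with other places in the genome.

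Wls, the carrier that takes Wnt ligands to the cell surface (chromosome 3, 159839672 to 159938664), stood at 15.8, 16.3, 16.6 and 16.1 CPM in the oocytes of Middle mice 1 to 4 and at 62.8, 63.1 and 63.3 CPM in those of CR mice 1 to 3. Its cumulus levels were 39.7, 40.1, 54.01 and 44.5 CPM and 27.8, 36.1 and 38.1 CPM. The oocyte values were tight within each diet and did not overlap, and the interaction was 2.33 (SE 0.21) with an edgeR adjusted p of 0.00819. Rassf6, of the Ras association domain family, had oocyte levels of 5.01, 6.34, 10.3 and 5.26 CPM in Middle and 25.7, 13.7 and 16.2 CPM in CR, and cumulus levels of 10.1, 12.7, 27.01 and 13.9 and 9.33, 4.77 and 9.57 CPM. It rose in oocytes relative to cumulus cells by 2.42 (SE 0.29). Tnc, the matrix protein tenascin C, moved by 1.22 in oocytes and -1.17 in cumulus cells, where Middle mice had 59.7, 69.3, 99.3 and 68.2 CPM and CR mice 22.1, 33.4 and 40.5 CPM, an interaction of 2.35 (SE 0.39). For Tnc neither cell type overlapped between diets.

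Nceh1, a hydrolase of cholesterol esters, also moved in opposite directions, from 242 ± 20.7 to 437 ± 10.7 CPM in oocytes and from 78.02 ± 8.55 to 41.4 ± 14.8 CPM in cumulus cells (SD, n = 4 and 3 mice). Its interaction was 1.80 (SE 0.25). Sspn, a membrane protein of the dystrophin complex, gave 1.79 (SE 0.27), and Fbxo45, a substrate receptor of a ubiquitin ligase, 1.76 (SE 0.23). The mitochondrial carrier Slc25a30 gave 1.66 (SE 0.24), the acyltransferase Lpgat1 1.61 (SE 0.21) and Mfap3l 1.43 (SE 0.22). For Fbxo45, Slc25a30 and Mfap3l nearly the whole interaction lay in the oocyte, with cumulus changes of -0.12, -0.11 and 0.03. The adjusted p of these 6 genes lay between 0.0329 and 0.0446, close to the threshold.

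Among genes with a negative interaction, Cox19, which helps assemble cytochrome c oxidase (chromosome 5, 139336189 to 139351418), stood at 7.86, 11.3, 19.7 and 7.16 CPM in Middle oocytes and 3.32, 4.03 and 3.58 CPM in CR oocytes, and at 9.41, 9.64, 18.3 and 8.19 and 13.8, 14.3 and 12.7 CPM in cumulus cells. Oocyte levels did not overlap, cumulus levels did, and Middle mouse 3 was the highest of all in both cell types. The interaction was -1.87 (SE 0.25) with an edgeR adjusted p of 0.0329. Arrdc2, of the arrestin domain family (chromosome 8, 70835129 to 70839720), differed between diets in both cell types without overlap, at 134, 115, 112 and 122 and 75.98, 80.1 and 91.2 CPM in oocytes and at 23.8, 21.4, 21.8 and 25.7 and 44.7, 42.2 and 40.8 CPM in cumulus cells, an interaction of -1.43 (SE 0.19). Kdelr2, the receptor that returns escaped proteins to the endoplasmic reticulum, behaved alike, with -0.85 in oocytes, 0.52 in cumulus cells and an interaction of -1.38 (SE 0.19). Srp68, a subunit of the signal recognition particle, gave -1.04 (SE 0.18).

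The other genes named for a large negative interaction changed mainly in the oocyte. Tmem107, a protein of the ciliary transition zone, gave -1.82 (SE 0.25), the deubiquitinase Josd2 -1.81 (SE 0.28) and the membrane protein Plxdc2 -1.46 (SE 0.24). Plxdc2 was mainly a cumulus RNA, with a mean of 251 CPM there. Its oocyte levels were 32.6, 32.1, 22.4 and 29.5 CPM in Middle mice and 13.2, 14.4 and 9.40 CPM in CR mice. The part of cumulus RNA in these oocyte levels was not tested. Gpx1, the glutathione peroxidase that removes hydrogen peroxide (chromosome 9, 108338903 to 108340343), stood at 14.6, 12.5, 13.9 and 18.2 CPM in Middle oocytes, 6.64, 6.91 and 6.67 CPM in CR oocytes, and 45.2, 46.05, 57.5 and 58.2 and 59.6, 58.8 and 58.1 CPM in cumulus cells. All 3 CR mice lay below all 4 Middle mice in oocytes, while the diets overlapped in cumulus cells, and the interaction was -1.33 (SE 0.20).

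Beyond Trim6, the calls of these genes depended on the setting. Across 24 other settings the positive genes after Trim6 were called in 13 (Tnc) to 18 (Wls), and the negative genes in 10 (Josd2, Gpx1 and Srp68) to 14 (Cox19, Tmem107 and Kdelr2). With the length and GC trend removed Tnc, Sspn, Mfap3l, Josd2, Arrdc2, Gpx1 and Srp68 were no longer called, at adjusted p from 0.0537 (Tnc) to 0.0757 (Srp68). With it removed their interactions moved, Tnc from 2.35 to 2.36, Sspn from 1.79 to 1.64, Mfap3l from 1.43 to 1.19, Josd2 from -1.81 to -1.36, Arrdc2 from -1.43 to -1.06, Gpx1 from -1.33 to -0.99 and Srp68 from -1.04 to -0.83. Of the called list members described below, mt-Nd6, Xrn1, Rpl13 and Ptgs2 also lost their call, at 0.0763, 0.0649, 0.0591 and 0.0591, and their interactions moved, mt-Nd6 from 1.42 to 1.09, Xrn1 from 1.38 to 0.91, Rpl13 from -1.08 to -0.87 and Ptgs2 from 2.81 to 2.46.

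**Figure D2:**
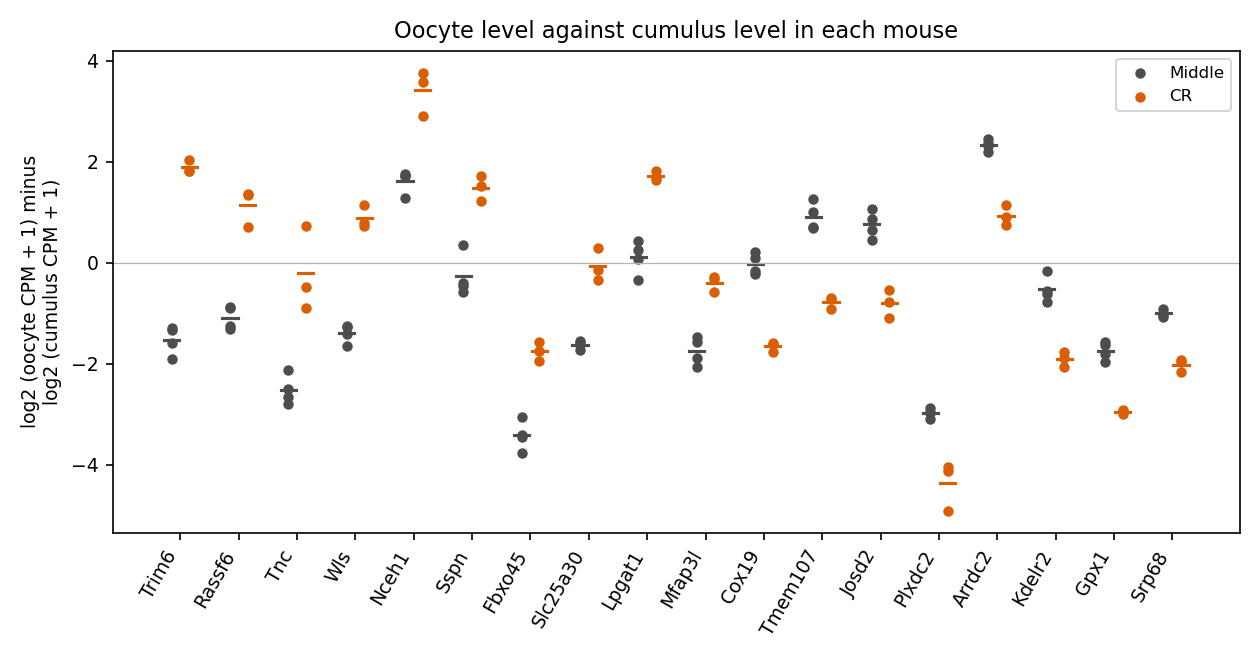
Log2 of the oocyte level minus log2 of the cumulus level (CPM + 1) in each of 4 Middle mice (grey) and 3 CR mice (orange) for the 18 genes named for a large interaction, with a bar at the group mean. In none of these genes do the diets overlap, and the mice lie furthest apart for Trim6, where the interaction was 3.75.

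Messenger RNAs encoded by the mitochondrial genome had the most positive median of the 32 lists of pathway or study genes. Each list's median is followed in brackets by its value with the trend of level on gene length and GC content removed, then by its value without Middle mouse 4. For reading the counts of members, the shares of all genes tested were 21.3% at an unadjusted p under 0.05, 0.458% called by edgeR, 7.34% by DESeq2 and 2.74% by limma-voom. Values of single genes not called are loose: 52 of the 88 chosen from lists moved by over 1.5 times in at least 1 other setting, against 3 of 26 called genes named. The 13 genes code for core subunits of the respiratory chain and of ATP synthase. All 13 were positive and edgeR called 4 of 13, 13 had an unadjusted p under 0.05, and DESeq2 and limma-voom called 12 and 11. The median was 1.42 (1.17, 1.39), against -0.01 over all genes tested, with medians of 1.34 in oocytes and -0.05 in cumulus cells. In oocytes mt-Co2 stood at 92.6, 88.5, 76.99 and 79.05 CPM in Middle mice and at 332, 339.7 and 315 CPM in CR mice. In cumulus cells it stood at 1612, 1742, 888 and 1747 and at 1329, 1667 and 1732 CPM, with Middle mouse 3 the lowest. The interaction of mt-Co2 was 1.86 (SE 0.26), of mt-Nd1 1.68 (SE 0.28), of mt-Nd6 1.42 (SE 0.23) and of mt-Nd2, named because it was called, 1.90 (SE 0.33). These values are uncertain, since 93.98% of the nonzero counts of mt-Co2 and 50.6% of those of mt-Nd1 were not whole, as happens where reads map to several places. The pseudogene Gm28661 on chromosome 1 was also called, at 332, 339 and 315 CPM in CR oocytes, close to mt-Co2. Of its nonzero counts 90.4% were not whole, and 81.9% of those of Gm13341, a called pseudogene on chromosome 2. Whether these calls rest on reads shared with mitochondrial genes was not tested. The share of all counts from the mitochondrial chromosome was 0.790% ± 0.0713 (SD, n = 4) in Middle oocytes and 1.27% ± 0.391 (SD, n = 3) in CR oocytes, with an exact permutation p of 0.0286 (adjusted 0.124). The share counts every gene of that chromosome, not the 13 messengers alone. The gap in the share between diets rested on a library of CR mouse 1 at 3.47%. Without that library the mouse stood at 0.839%, below Middle mouse 2 at 0.854%, and the diets overlapped. The same library had the lowest Zp3 of those kept (43.7% of the median) and cumulus markers at 10.8% of the median cumulus library, and cumulus libraries of CR mice carried 8.09% mitochondrial counts. The part of cumulus RNA in its share was not tested.

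Nuclear genes for the same complexes had a median near that of all genes, -0.14 (-0.05, -0.21) over 78 genes. Of them edgeR called 0 of 78, 16 had an unadjusted p under 0.05, and DESeq2 and limma-voom called 8 and 3. Uqcrb of complex III gave 1.67 (SE 0.32), while Ndufa13 of complex I gave -0.98 (SE 0.21) and Atp5j2 of ATP synthase -0.98 (SE 0.21). Mitochondrial ribosomal proteins, which translate the mitochondrial messengers, had a median of -0.36 (-0.26, -0.42), from -0.26 in oocytes and 0.11 in cumulus cells, and edgeR called 0 of 77, 27 had an unadjusted p under 0.05, and DESeq2 and limma-voom called 10 and 2. Mrpl34 gave -1.61 (SE 0.33), Mrps12 -1.45 (SE 0.31) and Mrpl32 -0.91 (SE 0.23). Cytoplasmic ribosomal proteins had a median of -0.29 (-0.22, -0.37) over 82 genes, 67 of them negative, against 50.9% of all genes tested. Of these edgeR called 1 of 82, 29 had an unadjusted p under 0.05, and DESeq2 and limma-voom called 19 and 6, the edgeR call being Rpl13 at -1.08 (SE 0.18). Rpl27a gave -0.94 (SE 0.18) and Rack1 -0.77 (SE 0.17). Ribosomal protein genes have many processed pseudogenes that resemble them, and their counts are uncertain: 100% of the nonzero counts of Rpl13 were not whole. Over all genes tested the shares were 21.3%, 0.458%, 7.34% and 2.74% (unadjusted p under 0.05, edgeR, DESeq2 and limma-voom).

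Chromosome segregation genes that the study had picked with these same samples are not independent evidence of a direction. Of the 18 tested, 17 were positive, with a median of 0.49 (0.19, 0.44), 0.49 in oocytes and 0.07 in cumulus cells. In this list edgeR called 0 of 18, 9 had an unadjusted p under 0.05, and DESeq2 and limma-voom called 3 and 1. Stag1, a cohesin subunit, gave 0.94 (SE 0.18) with an edgeR adjusted p of 0.0671, and the kinetochore proteins Spc25 and Knl1 gave 0.67 (SE 0.19) and 0.57 (SE 0.18). The median GC content of the list was 43.5%, against 49.6% for all genes tested. Kinetochore and checkpoint genes outside that list had a median of -0.07 (-0.05, -0.11), and edgeR called 0 of 34, 6 had an unadjusted p under 0.05, and DESeq2 and limma-voom called 3 and 1. Aurkb, the kinase of the chromosomal passenger complex, gave -0.91 (SE 0.20), its partner Cdca8 -0.68 (SE 0.18) and the polo kinase Plk1 -0.72 (SE 0.21). Other cohesin genes had a median of 0.13 (-0.03, 0.20), and edgeR called 0 of 14, 3 had an unadjusted p under 0.05, and DESeq2 and limma-voom called 0 and 0. The cohesin release factors Pds5a and Wapl gave 0.94 (SE 0.29) and 0.48 (SE 0.19), and Stag2 gave 0.56 (SE 0.21). Beside these counts stand shares of 21.3%, 0.458%, 7.34% and 2.74% over all genes (unadjusted p under 0.05, edgeR, DESeq2 and limma-voom).

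DNA replication genes, needed by dividing cumulus cells and idle in an arrested oocyte, had a median of -0.25 (-0.28, -0.30), with 0.07 in oocytes and 0.30 in cumulus cells. Of 49 tested, 36 were negative. Among replication genes edgeR called 1 of 49, 17 had an unadjusted p under 0.05, and DESeq2 and limma-voom called 10 and 3. The edgeR call was Rrm2, the small subunit of ribonucleotide reductase, with 73.5% of its nonzero counts not whole. Rrm2 stood at 91.2, 83.4, 95.8 and 79.3 CPM in Middle oocytes and 60.4, 64.9 and 59.4 CPM in CR oocytes, and at 161, 150.1, 169 and 135 and 243, 212 and 225 CPM in cumulus cells. The diets did not overlap in either cell type, and moved in opposite directions, for an interaction of -1.07 (SE 0.16). The helicase subunit Mcm4 gave -0.88 (SE 0.19) and the origin protein Orc3 0.79 (SE 0.18). DNA repair genes had a median of 0.13 (-0.02, 0.22), and edgeR called 0 of 49, 15 had an unadjusted p under 0.05, and DESeq2 and limma-voom called 4 and 0. The end-joining genes Xrcc4 and Xrcc5 gave 1.15 (SE 0.27) and 0.76 (SE 0.19), and the excision nuclease Ercc5 0.74 (SE 0.21). In the genes of the meiotic cell cycle switch the median was -0.01 (-0.01, 0.03), and edgeR called 0 of 23, 4 had an unadjusted p under 0.05, and DESeq2 and limma-voom called 2 and 0. Cyclin E1 (Ccne1) gave -1.66 (SE 0.36) and Bora, an activator of Plk1 signalling, 0.79 (SE 0.23). Cell cycle inhibitors and p53 genes had a median of -0.10 (-0.12, -0.12), and edgeR called 0 of 18, 2 had an unadjusted p under 0.05, and DESeq2 and limma-voom called 1 and 1. The p53 regulator Mdm4 gave 0.98 (SE 0.20), the inhibitor Cdkn1a -1.16 (SE 0.53) and Bax -0.63 (SE 0.31). All genes together gave shares of 21.3%, 0.458%, 7.34% and 2.74% (unadjusted p under 0.05, edgeR, DESeq2 and limma-voom).

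Genes that store, translate and degrade maternal mRNA had a median of 0.03 (-0.11, 0.07), and edgeR called 1 of 25, 5 had an unadjusted p under 0.05, and DESeq2 and limma-voom called 5 and 4. The gene called by edgeR was Xrn1, the exonuclease that degrades decapped mRNA, at 52.01, 41.01, 40.3 and 46.9 CPM in Middle oocytes and 107, 91.1 and 106 CPM in CR oocytes, with an interaction of 1.38 (SE 0.19), of which 0.91 was left with the length and GC trend removed. In cumulus cells Xrn1 overlapped between diets, and 61.4% of its nonzero counts were not whole. The helicase Ddx6 gave 1.03 (SE 0.19) and the deadenylase Cnot6 1.17 (SE 0.23). Translation factors had a median of -0.02 (-0.03, 0.01), and edgeR called 0 of 61, 13 had an unadjusted p under 0.05, and DESeq2 and limma-voom called 5 and 2. Eif3d gave -0.80 (SE 0.18), Eif4b 0.69 (SE 0.17) and Eif2a 0.67 (SE 0.20). Proteasome subunits had a median of -0.26 (-0.13, -0.36), from 0.03 in oocytes and 0.25 in cumulus cells, and edgeR called 0 of 34, 9 had an unadjusted p under 0.05, and DESeq2 and limma-voom called 4 and 0. Psmb3, Psmb2 and Psmd14 gave -0.81 (SE 0.21), -0.85 (SE 0.23) and -0.79 (SE 0.22). Genes that mainly the oocyte expresses could seldom be compared, because the cumulus level had to reach 1 CPM: 10 of 20 maternal effect genes and 3 of 16 oocyte transcription factors were tested. For the maternal effect genes the median was -0.22 (-0.06, -0.06), and edgeR called 0 of 10, 0 had an unadjusted p under 0.05, and DESeq2 and limma-voom called 0 and 0, with Zar1 at -1.61 (SE 0.78), Zbed3 at -0.35 (SE 0.24) and Uhrf1 at -0.34 (SE 0.28). For the transcription factors it was 0.22 (0.06, 0.06), and edgeR called 0 of 3, 0 had an unadjusted p under 0.05, and DESeq2 and limma-voom called 0 and 0, with Foxo3 at 0.36 (SE 0.32), Nfya at -0.20 (SE 0.19) and Taf4b at 0.22 (SE 0.43). Zar1 was low in cumulus cells, at 4.48 CPM in CR mouse 3 and 0.235 to 1.74 CPM in the other mice. CR mouse 3 held the cumulus library with 453 CPM of oocyte markers. Across the other settings the interaction of Zar1 ran from -2.16 to -0.38. Shares over all genes were 21.3%, 0.458%, 7.34% and 2.74% (unadjusted p under 0.05, edgeR, DESeq2 and limma-voom).

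Lists of nutrient signalling and metabolism cover the pathways most often tied to calorie restriction. Genes of insulin, IGF, PI3K and FOXO signalling had a median of 0.21 (-0.03, 0.25), and edgeR called 0 of 23, 6 had an unadjusted p under 0.05, and DESeq2 and limma-voom called 2 and 2. The kinase Gsk3b gave 0.95 (SE 0.18) and the receptor substrate Irs2 -1.91 (SE 0.54). In the mTOR pathway the median was -0.11 (-0.03, 0.02), and edgeR called 0 of 31, 3 had an unadjusted p under 0.05, and DESeq2 and limma-voom called 0 and 0, with Rictor at 0.57 (SE 0.23), Akt1s1 at -0.56 (SE 0.23) and Sesn2 at -1.05 (SE 0.46). Across the other settings Rictor ran from 0.13 to 0.87, Akt1s1 from -0.70 to -0.09 and Sesn2 from -1.29 to -0.32. Fatty acid oxidation and fasting genes had a median of -0.28 (-0.12, -0.10), and edgeR called 0 of 26, 5 had an unadjusted p under 0.05, and DESeq2 and limma-voom called 0 and 0. The enzymes Cpt1c, Acaa2 and Bdh1 gave -1.40 (SE 0.45), -1.20 (SE 0.41) and -0.82 (SE 0.34). Cholesterol synthesis and uptake, which cumulus cells carry out largely on behalf of the oocyte, had a median of -0.39 (-0.41, -0.16), with 0.06 in oocytes and 0.46 in cumulus cells, and edgeR called 0 of 27, 10 had an unadjusted p under 0.05, and DESeq2 and limma-voom called 1 and 0. Srebf2, the transcription factor of the pathway, gave -1.09 (SE 0.33), Fdps -0.85 (SE 0.26) and Ebp -1.42 (SE 0.44). Glycolysis, another task of the cumulus cells, had a median of -0.03 (0.13, 0.08), and edgeR called 0 of 18, 1 had an unadjusted p under 0.05, and DESeq2 and limma-voom called 1 and 0. The lactate and pyruvate carrier Slc16a1 gave 0.85 (SE 0.23), Pgam1 -0.84 (SE 0.41) and Eno1 -0.52 (SE 0.27). Autophagy genes had a median of 0.15 (0.11, 0.27), and edgeR called 0 of 34, 4 had an unadjusted p under 0.05, and DESeq2 and limma-voom called 1 and 0, with the receptor Optn at 1.13 (SE 0.30), the lipid kinase Pik3c3 at 0.77 (SE 0.28) and Atg9a at -0.71 (SE 0.26). Against these counts, all genes gave shares of 21.3%, 0.458%, 7.34% and 2.74% (unadjusted p under 0.05, edgeR, DESeq2 and limma-voom).

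Antioxidant genes had a median of -0.07 (-0.10, -0.04), and edgeR called 1 of 25, 8 had an unadjusted p under 0.05, and DESeq2 and limma-voom called 7 and 2. The edgeR call was Gpx1, described above, which was called in 10 of 24 other settings and not with the length and GC trend removed (-0.99, adjusted p 0.0649). Hmox1, which breaks down haem, gave 2.47 (SE 0.46) with an edgeR adjusted p of 0.0654, and glutathione reductase (Gsr) -0.86 (SE 0.22). Stress response genes of the endoplasmic reticulum had a median of -0.13 (-0.00, 0.08), and edgeR called 0 of 25, 5 had an unadjusted p under 0.05, and DESeq2 and limma-voom called 2 and 0. The chaperone cofactor Sdf2l1 gave -1.55 (SE 0.37), Pdia4 -0.65 (SE 0.20) and the serine synthesis enzyme Phgdh -0.70 (SE 0.30). Sirtuins, deacylases long studied in calorie restriction, had a median of -0.15 (-0.06, -0.11) over 7 genes, and edgeR called 0 of 7, 1 had an unadjusted p under 0.05, and DESeq2 and limma-voom called 0 and 0. Sirt7, Sirt6 and Sirt4 gave -0.81 (SE 0.30), -0.75 (SE 0.34) and -0.53 (SE 0.44). Clock genes had a median of 0.24 (0.27, 0.54), and edgeR called 0 of 15, 2 had an unadjusted p under 0.05, and DESeq2 and limma-voom called 1 and 1, with the repressors Nr1d2 and Cry1 at 1.38 (SE 0.27) and -0.71 (SE 0.22) and Clock at 0.52 (SE 0.23). The hour of collection can move such genes and is not in the labels. Immediate early genes, which respond within minutes to handling as well as to hormones, had a median of -0.69 (-0.45, -0.59), and edgeR called 0 of 18, 2 had an unadjusted p under 0.05, and DESeq2 and limma-voom called 2 and 2. Zfp36, Dusp1 and Ier2 gave -2.03 (SE 0.41), -2.14 (SE 0.46) and -1.23 (SE 0.56). For comparison, 21.3%, 0.458%, 7.34% and 2.74% of all genes passed (unadjusted p under 0.05, edgeR, DESeq2 and limma-voom).

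Receptors for gonadotropins, steroids and growth factors had a median of 0.37 (0.41, 0.48), with 0.32 in oocytes and -0.22 in cumulus cells, and edgeR called 0 of 21, 6 had an unadjusted p under 0.05, and DESeq2 and limma-voom called 5 and 5. The activin and BMP receptors Acvr1 and Bmpr1b gave 1.09 (SE 0.22) and 1.13 (SE 0.24), and the oestrogen receptor Esr1 1.15 (SE 0.24), with edgeR adjusted p between 0.0671 and 0.0677. Oocyte-secreted factors and SMAD genes had a median of 0.13 (0.23, 0.36), and edgeR called 0 of 17, 4 had an unadjusted p under 0.05, and DESeq2 and limma-voom called 1 and 0. This list also holds the cumulus and granulosa markers Amh, Inhba and Inhbb. Its median is the value of Inhbb, which ran from -1.37 to 0.84 across the other settings. Kit ligand (Kitl), by which cumulus cells signal to the oocyte, gave 0.92 (SE 0.24), and Smad4 and Smad5 gave 0.68 (SE 0.20) and 0.45 (SE 0.16). Genes that hold the oocyte in meiotic arrest, with gap junction genes, had a median of 0.06 (-0.03, 0.14), and edgeR called 0 of 18, 3 had an unadjusted p under 0.05, and DESeq2 and limma-voom called 0 and 0. The phosphodiesterases Pde5a and Pde7b gave 1.40 (SE 0.44) and 0.73 (SE 0.36) and the adenylyl cyclase Adcy9 0.88 (SE 0.37). Steroid synthesis had a median of 0.05 (0.09, 0.31), and edgeR called 0 of 12, 1 had an unadjusted p under 0.05, and DESeq2 and limma-voom called 0 and 0, with Hsd17b7 at 0.90 (SE 0.28), Star at -1.32 (SE 0.64) and Por at -0.43 (SE 0.24). Without Middle mouse 4, Star was -0.43. Of the cumulus expansion genes 7 of 15 were tested, with a median of -0.87 (-0.91, -0.69), and edgeR called 1 of 7, 2 had an unadjusted p under 0.05, and DESeq2 and limma-voom called 1 and 1. The edgeR call was the prostaglandin synthase Ptgs2 at 2.81 (SE 0.47). Ptgs2 is named because it was called, and it was low, at 4.61, 3.88, 0.448 and 1.37 CPM in Middle oocytes and 10.6, 9.31 and 13.96 CPM in CR oocytes. In cumulus cells Ptgs2 stood at 4.94, 1.99, 0.871 and 1.11 CPM in Middle mice and 0.655, 0.805 and 2.30 CPM in CR mice. There the diets overlapped, and the cumulus change of -0.82 (SE 0.63) rests on few counts. Runx1, Adamts1 and Runx2 gave -1.83 (SE 0.56), -1.74 (SE 0.87) and -0.90 (SE 0.53). The shares for all genes tested were 21.3%, 0.458%, 7.34% and 2.74% (unadjusted p under 0.05, edgeR, DESeq2 and limma-voom).

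**Figure D3:**
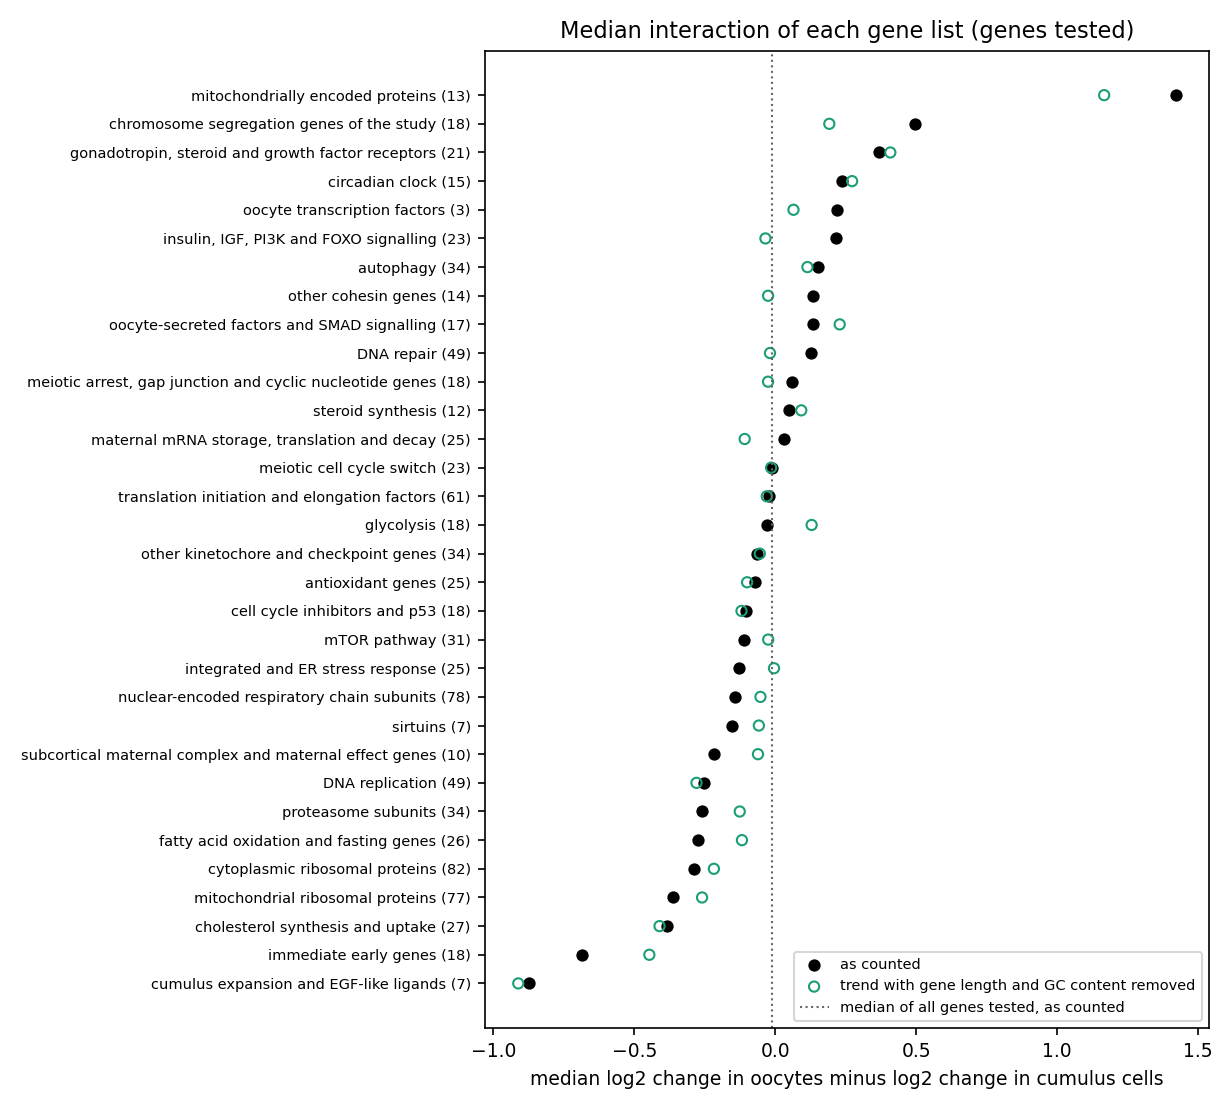
Median interaction of each of the 32 lists (log2, horizontal axis) with the number of genes tested in brackets, as counted (filled) and with the trend of level on gene length and GC content removed (open). The mitochondrially encoded genes lie at 1.42 and 1.17, and the dotted line is the median of all genes tested, -0.01.

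GC content moved with the interaction across genes. Over 12635 genes with a GC content, the Pearson r with the interaction was -0.40, with the oocyte change -0.38 and with the cumulus change 0.13, all descriptions over genes of the same sums. In the 20% of genes lowest in GC (up to 44.4%) the median interaction was 0.30, and in the 20% highest in GC (from 55.1%) it was -0.40. The lowest group held 24 of the genes called positive and 0 called negative, and the highest group 0 and 5. By mouse, the median log2 ratio of oocyte to cumulus level in the 20% highest in GC, relative to the mouse's own median, was 0.13, -0.01, -0.30 and 0.10 in Middle mice 1 to 4 and -0.31, -0.36 and -0.21 in CR mice 1 to 3. In the lowest group these were -0.22, -0.10, 0.19 and -0.16 and 0.21, 0.20 and 0.09. Middle mouse 3, with its 1 complex, lay within the range of the CR mice in the lowest and the 2 highest of 5 groups, above every mouse in the next lowest, at 0.20, and among the other Middle mice in the middle one, at 0.02. With the trend on length and GC content removed in the same blocked fit, 28 genes were called, 26 of them among the 58, and all 58 kept their sign. Whether the trend comes from the preparation of the libraries or from the RNA was not tested.

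**Figure D4:**
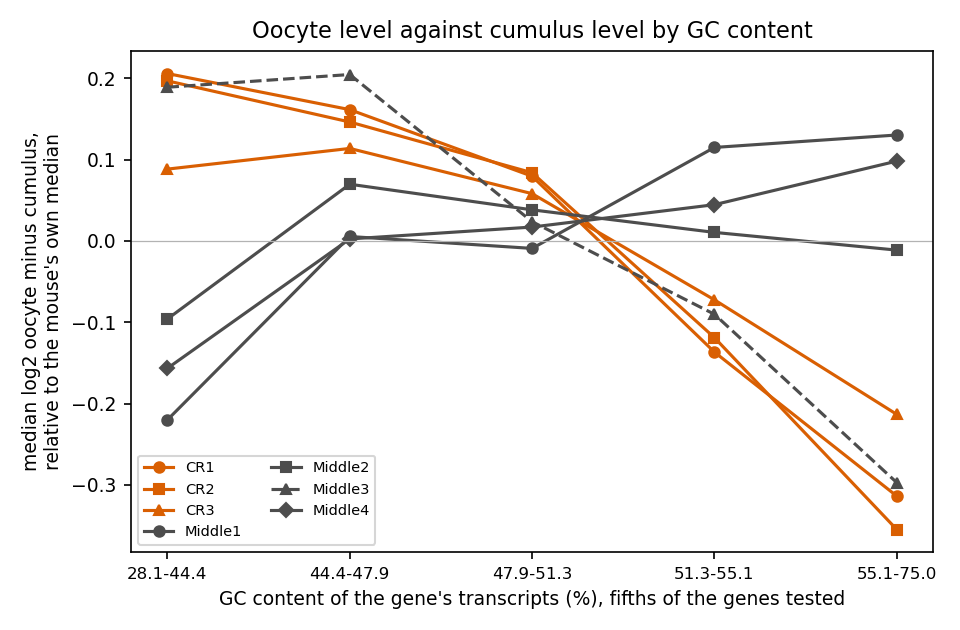
Median log2 of the oocyte level minus log2 of the cumulus level, relative to each mouse's own median, in 5 equal groups of the genes tested by GC content (horizontal axis), for 4 Middle mice (grey) and 3 CR mice (orange). Middle mouse 3 (dashed) lies within the range of the CR mice in the lowest group, at 0.19, and in the 2 highest, at -0.09 and -0.30, and not in the other 2.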

How the data were processed

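Per the labels and the study's methods, the authors mapped reads to GRCm38 with HISAT2 2.0.5 and assigned them to genes of GENCODE by means of featureCounts 1.5.1, sharing multi-mapped reads between genes, and deposited estimated counts that need not be whole. The test had been laid out for counts. Here these expected counts were rounded in each library and summed per mouse and cell type into 14 sums. The interaction was tested with edgeR 4.0.16 (R 4.3.3), TMM factors within each cell type, the mouse as a block and Benjamini-Hochberg adjustment at 0.05. Within-cell-type changes came from the same test on 7 sums. limma 3.58.1 and DESeq2 1.42.0 were alternatives, and single values were compared by exact permutation over 7 mice. DESeq2 took its size factors over all 14 sums, so both tool and normalization differed. It gave no adjusted p for 737 genes, which were counted as not called. The scripts were tested on simulated data.

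Both sums of a mouse come from the same animal, as the labels say, so the block is a true pairing. Their deviations from the group means, over genes, correlated at -0.04 to 0.12. No pair of libraries in a group agreed within sampling noise (lowest chi-square per degree of freedom 2.88). The Middle mouse 3 complex with low Zp3 was left out. Symbols, positions, lengths and GC content came from GENCODE vM21 on the same build, in which 110 of 41092 gene IDs had no match. P-values cover the spread between these mice.

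Named genes were those called with at least 8 CPM in both cell types, the 10 largest in each direction (8 were negative), without gene models, pseudogenes and genes with over 50% of counts not whole, and up to 3 members of each list with the smallest p and at least 8 CPM in either cell type. Marker genes are given as levels. The members and the 32 gene lists and 7 marker lists were chosen with earlier results of these data known. The alternatives were another block, unit, tool, normalization, filter, depth, length and GC correction and set of libraries.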

Additional observations from a re-analysis of the deposited data

Results flagged for a closer look

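A test of the difference itself called 58 genes for unlike changes in oocytes and cumulus cells. Of the genes named, the positive interactions were Trim6 3.75, Rassf6 2.42, Tnc 2.35, Wls 2.33, Nceh1 1.80, Sspn 1.79, Fbxo45 1.76, Slc25a30 1.66, Lpgat1 1.61, Mfap3l 1.43, mt-Co2 1.86, mt-Nd6 1.42, mt-Nd1 1.68, Xrn1 1.38, mt-Nd2 1.90 and Ptgs2 2.81, and the negative ones were Cox19 -1.87, Tmem107 -1.82, Josd2 -1.81, Plxdc2 -1.46, Arrdc2 -1.43, Kdelr2 -1.38, Gpx1 -1.33, Srp68 -1.04, Rrm2 -1.07 and Rpl13 -1.08.

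A mouse lay far from the other 3 Middle mice in 14 of 140 sets of 4 values examined. A rate of about 1 in 20 would hold for independent, normally spread values. These sets come from the same 4 mice, and Middle mouse 3 had 1 library per cell type, so the count cannot be set against that rate. In the log2 ratio of oocyte to cumulus level Middle mouse 3 stood apart for Nceh1 at 1.29, Rpl13 at -2.01, Uqcrb at -3.69, mt-Nd1 at -3.28, Akt1s1 at -0.38, Ier2 at -7.13 and Adcy9 at -2.13. Middle mouse 1 stood apart for Eif4b at -0.87 and Por at -0.13. Middle mouse 2 stood apart for Psmb3 at -0.65. Middle mouse 4 stood apart for luteal markers, at 723 CPM in oocytes and 1342 CPM in cumulus cells, and for theca and stroma markers, at 104 and 281 CPM.

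In the complex left out, the library labelled an oocyte of Middle mouse 3 held cumulus and granulosa markers at 143% of the median cumulus library, and 1.09% of the oocyte markers of the median oocyte library.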

How the results depend on the processing

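All 58 genes kept their sign in every alternative that tested them, which genes selected for a small p would mostly do, and the number called moved between 0 and 3852. With no replicate block it was 576. With libraries in place of mice as units, which treats the oocytes of a mouse as independent, it was 3852, and 3247 with the complex as a replicate block. DESeq2, with size factors over all 14 sums, called 929 and limma-voom 347. A filter at 5 CPM in both cell types gave 410, filterByExpr 3 and a count in at least 5 libraries 80. RLE factors gave 55 and mean log values per mouse 48. TMM over all 14 sums gave 39, all positive, and shifted the median of all genes from -0.01 to 0.24. Thinning libraries to equal depth within a cell type, with unlike numbers of libraries per mouse kept, gave 32 and removing the length and GC trend, with the replicate block, 28. With the Middle mouse 3 complex put back it was 0, and without the 5 oocyte libraries over 10% of the cumulus marker level 276. Leaving out 1 mouse gave 1 to 567.

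Alternatives chosen after seeing the data were rounding after summing, 48, and the trend removed without Middle mouse 4, 1. Leaving out the highest library of a mouse for 5 sample properties was also chosen then, and moved the mitochondrial share of CR mouse 1 oocytes to 0.839%. A first run had used rounding after summing by mistake, and was replaced by the planned order. Nfya turned to 0.0856 with TMM over all sums and 0.0428 with the complex put back. Taf4b ran from -0.0687 to 0.568 leaving out 1 mouse, and was -0.0829 with the trend removed without Middle mouse 4. Of 30 marker genes tested and not named here as members of another list, 17 changed sign in at least 1 alternative, in 72 values in all. Of the 30, 0 were called in the edgeR test reported, against 10 in at least 1 alternative. Once the sign changes were seen, these genes were given singly as levels only. Those that also belong to another list, such as Inhbb, still enter its median and counts.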
